A study of Homo sapiens with 9 samples.

Results

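The transcripts of 8 immune checkpoint ligands were followed in A549, an established human lung adenocarcinoma cell line, after transfection with plasmids for either of a pair of long noncoding RNAs. The genes were CD274 (PD-L1), PDCD1LG2 (PD-L2), CD276 (B7-H3), VTCN1 (B7-H4), PVR (CD155), NECTIN2 (CD112), CD47 and LGALS9 (galectin-9). They were taken by symbol from the 58735 genes of the count matrix, and each of the 8 had exactly 1 row there and passed the filter on low counts in all 3 comparisons.

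Checkpoint ligands are proteins on or released by a cell that damp an immune response when they meet their receptors. PD-L1 and PD-L2 bind PD-1 on activated T cells, PVR and NECTIN2 bind TIGIT and the activating receptor CD226 on T and NK cells, CD47 binds SIRPA on macrophages and restrains phagocytosis, and galectin-9 binds glycans on TIM-3 and other surface proteins. In tumor cells, PD-L1 is the ligand targeted by antibodies in lung cancer, and its gene is a classical target of interferon signaling through JAK kinases, STAT factors and IRF1.

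All 9 libraries came from A549 transfected with jetPRIME. The control group (3 libraries) received the control plasmid, which the study's text calls PC3.1 while the treatment labels read PC3.1, PC3.2 and PC3.3. The LINC00996 group (3 libraries) received a plasmid for that lncRNA, and the AP001189.3 group (3 libraries) one for AP001189.3. A single line was used with 1 plasmid design per lncRNA, the share of cells that took up plasmid is not given in the sources used here, and nothing in the labels says that the 3 libraries of a group came from separate cultures, so the p-values measure the spread between these libraries, which may be technical. Because whole cultures were sequenced, a lower level cannot be told apart from fewer cells with the transcript. The libraries report mRNA, not protein on the cell surface.

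Each library held 15272450 to 18125447 counts. The control libraries held 4 to 9 counts of LINC00996, those transfected with its plasmid 4373 to 5952 and the AP001189.3 libraries 7 to 8, and AP001189.3 had 1660 to 2378 counts in its own group and 0 to 2 elsewhere. LINC00996 replicate 1 stood apart from its group, since its counts differed from those of replicates 2 and 3 by a chi-square of 20.1 and 29.7 per gene, where the other pairs within a group gave 2.21 to 6.7. The rank correlation of a gene's deviation with its GC content was 0.419 in that library, against -0.242 and -0.422 in the other LINC00996 libraries and -0.273 to -0.00962 in the controls, so it split the LINC00996 group. It was 0.21 to 0.359 in the AP001189.3 libraries, all above the controls. Values corrected for GC content (GC offset) are given below where the correction changed a call or moved a called value by over 1.5 times. This covers the 8 ligands and, of the other genes named, those called without the correction, in the comparison where they were called. For genes named but not called, the corrected value is not given, and some such calls may change with it. Of the 8 epithelial and A549 markers, 8 were detected in every group, their summed level being 11630 to 11690 CPM (counts scaled to a common library size with TMM factors) in control, 16040 to 17760 in LINC00996 and 12690 to 13300 in AP001189.3 libraries, and CDKN2A and CDKN2B, which are deleted in A549, had 0 counts throughout. T cell markers summed to at most 0.651 CPM and B cell markers to at most 1.06 CPM, with CD3D, MS4A1 and TYROBP at 0 in every library and PTPRC at 0 to 1 count. The 4 endothelial markers summed to 11.7 to 13.1 CPM in control, 5.26 to 6.50 in LINC00996 and 7.29 to 9.58 in AP001189.3 libraries, and the 5 fibroblast markers to 22.4 to 25.7, 16.1 to 18.3 and 20.9 to 24.3 CPM. PECAM1 (45 to 145 counts a library) and CDH5 (39 to 82) made up most of the endothelial sum and COL1A1 (219 to 362) and COL3A1 (36 to 73) most of the fibroblast sum, while KDR, DCN and COL1A2 had 0 to 1 count and VWF 0 to 3. The 7 NK and myeloid markers summed to 14.8 to 22.4 CPM over the 9 libraries, of which CD14 (124 to 251 counts) and ITGAM (82 to 152) were the largest. What part the marker levels have in the results below was not tested.

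In the LINC00996 libraries, 6 of the 8 ligands fell against control and 0 rose. CD274 fell 3.19-fold, PDCD1LG2 5.57-fold, LGALS9 1.97-fold, CD47 1.63-fold, NECTIN2 1.48-fold and CD276 1.32-fold, whereas PVR and VTCN1 did not pass the test. Over all 16097 genes tested, edgeR's quasi-likelihood test called 11.6% lower and 10.7% higher, or 22.3% in all, at a Benjamini-Hochberg adjusted p under 0.05. The 1722 higher and 1866 lower calls became 2006 and 1669 with library size as the only scaling, 1924 and 1707 with a gene length offset and 3033 and 2873 with the GC offset. No ligand was higher at an unadjusted p under 0.05 (0 of 8), and DESeq2 also called 0 higher. The groups did not overlap for the same 6 ligands, which was the case, in that direction, for 20.7% of all genes. The median log2 fold change was -0.63 over the 8 ligands and 0.01 over all genes. Without LINC00996 replicate 1 the same test called 6 ligands, and 33.2% of all genes.

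In the AP001189.3 libraries, 3 of the 8 ligands rose against the same control libraries and 0 fell. These were CD274 (1.496-fold), LGALS9 (1.41-fold) and NECTIN2 (1.30-fold). Of the 16023 genes tested in this comparison, 11.4% were called higher and 8.49% lower, or 19.8% in all. The 1819 higher and 1361 lower calls became 1608 and 1719 with library size as the only scaling and 1188 and 1235 with the GC offset. None of the 8 ligands was lower at an unadjusted p under 0.05 (0 of 8) or by DESeq2 (0 of 8). The 3 AP001189.3 libraries lay above the 3 control libraries for 4 ligands, the 3 named and PVR, against 18.5% of all genes. Over the 8 ligands the median log2 fold change was 0.09, and over all genes it was -0.001. With the GC offset, 5 ligands were called in place of 3, since CD47 came out higher and CD276 lower, and 15.1% of all genes were called.

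**Figure D1:**
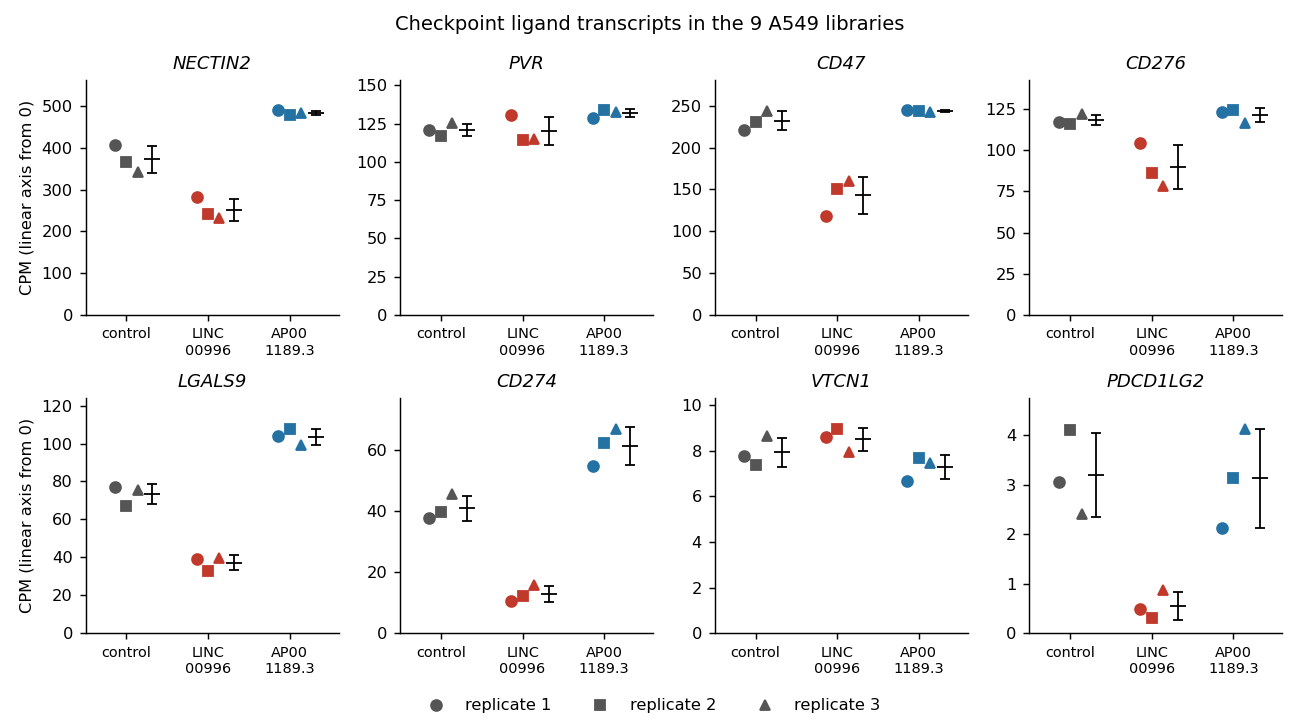
Level of each of the 8 ligands in CPM (linear axes from 0, a separate scale per gene) in the 3 control, 3 LINC00996 and 3 AP001189.3 libraries. Symbols mark replicate numbers 1 to 3, and the black bar is the mean with its SD (n = 3). CD274, LGALS9 and NECTIN2 show all LINC00996 libraries below and all AP001189.3 libraries above the controls, while the LINC00996 libraries overlap the controls for PVR and VTCN1.

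CD274 lies at chr9:5450503-5470566 on the plus strand of GRCh38 and encodes PD-L1, the main ligand of PD-1. The 211 bases just upstream of its annotated start are shown because they hold the interferon-type motifs that the search found in this promoter (RefSeq promoter table, GRCh38.p14, chr9:5450292-5450502, plus strand). Capitals mark, in order, a pair of overlapping interferon-stimulated response element (ISRE) cores read on the opposite strand and a gamma-activated site (GAS).

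CD274 promoter: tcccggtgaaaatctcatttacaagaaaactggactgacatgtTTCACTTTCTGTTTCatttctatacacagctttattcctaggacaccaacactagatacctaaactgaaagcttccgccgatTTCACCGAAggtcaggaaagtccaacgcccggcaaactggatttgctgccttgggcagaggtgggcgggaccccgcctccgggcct

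The motifs searched, on both strands, were GAAANNGAA for the ISRE core, TTCNNNGAA for the GAS, which reads the same on both strands, and the NF-kB site by its usual consensus. In the CD274 window of 250 bases before to 50 after the RefSeq start, the ISRE cores lay at -207 to -199 and -201 to -193 and the GAS at -125 to -117, with the start base as 0. Among 35116 promoter windows of the same length, 8.11% held an ISRE core, 7.66% a GAS and 11.3% an NF-kB site. Of the 8 ligands, 7 had a window in the table, and PDCD1LG2 was not among them. LGALS9 held 1 ISRE core at -8 to 0, and the second of the windows of CD276 held an NF-kB site at -68 to -59, read on both strands. These matches describe letters in a window, and no binding was measured.

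The CD274 transcript stood at 37.6, 39.6 and 45.5 CPM in control libraries 1, 2 and 3. It was at 10.5, 12.2 and 15.8 CPM in the LINC00996 libraries. In the AP001189.3 libraries it reached 54.7, 62.1 and 66.9 CPM. The 3 groups did not overlap, with every LINC00996 library under every control library and every AP001189.3 library above them. Raw counts behind these levels were 191 to 291 in the LINC00996 group, 636 to 790 in control and 924 to 1102 in the AP001189.3 group.

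Against control, CD274 fell by 1.67 ± 0.15 (SE) on the log2 scale in the LINC00996 group (95% interval -2.01 to -1.34, edgeR adjusted p = 2.05e-05), which ranked 118 by p among the 16097 genes tested. In the AP001189.3 group it rose by 0.58 ± 0.08 (95% interval 0.41 to 0.75, edgeR adjusted p = 1.25e-05). Both comparisons use the same 3 control libraries. As a share of the control mean, the LINC00996 libraries held 25.6%, 29.8% and 38.5% and the AP001189.3 libraries 134%, 152% and 163% of the CD274 level. Without LINC00996 replicate 1, which had the lowest level, the log2 fold change was -1.54, and with the GC offset the AP001189.3 value was 0.66.

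PDCD1LG2 (chr9:5510570-5571254, plus strand) encodes PD-L2, the other ligand of PD-1, and lies downstream of CD274. It was the least abundant of the 8, with 3.06, 4.11 and 2.42 CPM in the control libraries. The LINC00996 libraries had 0.493, 0.318 and 0.867 CPM, and the AP001189.3 libraries 2.13, 3.13 and 4.13 CPM. All LINC00996 libraries were below the other groups, which overlapped each other. Few reads stand behind these levels, with 5 to 16 counts in the LINC00996 libraries against 42 to 66 in control and 36 to 68 in AP001189.3 libraries.

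On the log2 scale PDCD1LG2 fell by 2.48 ± 0.38 (SE) with LINC00996 (95% interval -3.30 to -1.66, edgeR adjusted p = 0.000752). With AP001189.3 the log2 fold change was -0.03 (95% interval -0.55 to 0.49, edgeR adjusted p = 0.952), an interval that leaves room for a change of either sign. Asking for 10 or more counts in each library removed the gene from both comparisons with the LINC00996 group. The FPKM ratio of CD274 to PDCD1LG2 was 5.55 to 10.8 in control, 10.5 to 22.1 in LINC00996 and 9.33 to 14.8 in AP001189.3 libraries. The mean ratio was 7.81 ± 2.7 (SD, n = 3) in control, 14.9 ± 6.3 in LINC00996 and 11.9 ± 2.7 in AP001189.3 libraries. A two-sided exact permutation test gave p = 0.2 for either lncRNA group against control, and with 3 libraries against 3 it cannot go below 0.1.

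CD276 (chr15:73683966-73714518, plus strand) encodes B7-H3, a B7 family member found on many tumors whose receptor is not settled. Its level was 117, 116 and 122 CPM in control, 105, 86.1 and 78.6 CPM in LINC00996, and 124, 124 and 117 CPM in AP001189.3 libraries. The LINC00996 libraries were the lowest, with replicate 1 nearest to control, and the control and AP001189.3 libraries overlapped. CD276 fell by 0.40 ± 0.11 (SE) on the log2 scale with LINC00996 (95% interval -0.64 to -0.16, edgeR adjusted p = 0.0236). The call was lost without control replicate 1, 2 or 3 or LINC00996 replicate 2 or 3 (log2 fold change -0.42 to -0.31, adjusted p 0.0618 to 0.0937). Without LINC00996 replicate 1 it was -0.52 (adjusted p = 6.63e-07). With AP001189.3 the log2 fold change was 0.04 (95% interval -0.08 to 0.15, adjusted p = 0.701), and with the GC offset it was -0.17 (adjusted p = 0.0354).

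VTCN1 (chr1:117143587-117210960, minus strand) encodes B7-H4, an inhibitor of T cell activation. It was measured at 7.77, 7.36 and 8.64 CPM in control, at 8.61, 8.96 and 7.96 CPM in LINC00996, and at 6.69, 7.68 and 7.47 CPM in AP001189.3 libraries. Control libraries overlapped both other groups. The log2 fold change was 0.10 with LINC00996 (95% interval -0.22 to 0.42, edgeR adjusted p = 0.67) and -0.12 with AP001189.3 (95% interval -0.42 to 0.17, adjusted p = 0.603). At 113 to 157 counts a library, the first of these intervals still holds a rise of 1.34-fold.

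NECTIN2 and PVR belong to the nectin family and both lie on chromosome 19, at chr19:44846175-44889228 and chr19:44643798-44663583, on the plus strand. Both proteins bind TIGIT and CD226, and NECTIN2 also binds the inhibitory receptor PVRIG. The NECTIN2 transcript stood at 408, 367 and 343 CPM in control, at 282, 241 and 233 CPM in LINC00996, and at 490, 479 and 484 CPM in AP001189.3 libraries. PVR was at 121, 117 and 125 CPM in control, at 131, 114 and 115 CPM in LINC00996, and at 129, 134 and 133 CPM in AP001189.3 libraries. The 3 groups were separate for NECTIN2, while for PVR the LINC00996 libraries fell on both sides of the controls and the AP001189.3 libraries lay just above them.

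NECTIN2 fell by 0.57 ± 0.10 (SE) on the log2 scale with LINC00996 (edgeR adjusted p = 0.00228) and rose by 0.38 ± 0.05 with AP001189.3 (adjusted p = 1.53e-05). With the GC offset the latter value was 0.20 (adjusted p = 0.00333), so the size of the rise depended on that correction. For PVR the log2 fold change was -0.01 with LINC00996 (95% interval -0.22 to 0.19, adjusted p = 0.938) and 0.12 with AP001189.3 (95% interval 0.01 to 0.23, adjusted p = 0.116). The LINC00996 interval of NECTIN2, -0.79 to -0.34, did not reach that of PVR.

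Within a library, the FPKM ratio of NECTIN2 to PVR was 3.16, 2.94 and 2.57 in control. It was 2.02, 1.98 and 1.90 in LINC00996 libraries and 3.57, 3.37 and 3.42 in AP001189.3 libraries. The mean ratio was 2.89 ± 0.30 (SD, n = 3) in control, 1.97 ± 0.06 in LINC00996 and 3.45 ± 0.10 in AP001189.3 libraries, and the 3 groups did not overlap. A two-sided exact permutation test gave p = 0.1 for each of the 3 pairs of groups, the smallest it can give here. PVR shares up to 121 exonic bases on the same strand with CEACAM19, which had 212 to 277 counts a library, and NECTIN2 up to 128 with the antisense gene AC011481.2, which had 2 to 16 counts. Counting by strand could not separate PVR from CEACAM19, and for NECTIN2 the counting is not stated to use strand. Reads in those stretches therefore cannot be assigned with certainty.

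CD47 (chr3:108043094-108091862, minus strand) encodes the ligand of SIRPA, often called a do-not-eat-me signal. Control libraries had 222, 231 and 244 CPM and AP001189.3 libraries 245, 244 and 242 CPM, with overlap between them. In the LINC00996 libraries CD47 was at 118, 151 and 160 CPM, all below control, with replicate 1 the lowest. CD47 fell by 0.70 ± 0.11 (SE) on the log2 scale with LINC00996 (95% interval -0.95 to -0.45, edgeR adjusted p = 0.0012), and by 0.58 without LINC00996 replicate 1. With AP001189.3 the log2 fold change was 0.07 (95% interval -0.04 to 0.17, adjusted p = 0.387). The GC offset moved that value to 0.19 (adjusted p = 0.00556).

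LGALS9 (chr17:27629798-27649560, plus strand) encodes galectin-9, a secreted lectin. Its level was 77.0, 67.2 and 75.5 CPM in control, 39.3, 32.6 and 39.8 CPM in LINC00996, and 104, 108 and 99.2 CPM in AP001189.3 libraries. As for CD274 and NECTIN2, the 3 groups were separate. LGALS9 fell by 0.97 ± 0.11 (SE) on the log2 scale with LINC00996 (95% interval -1.22 to -0.73, edgeR adjusted p = 0.000111) and rose by 0.50 ± 0.06 with AP001189.3 (95% interval 0.37 to 0.63, adjusted p = 2.04e-06). Reads of this gene can also match its near-identical copies LGALS9B, LGALS9C and LGALS9DP, which had 2 to 12, 0 to 7 and 0 to 1 counts a library, so the LGALS9 level is uncertain by how the counting treated such reads.

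Set directly against the AP001189.3 group, 6 of the 8 ligands were lower in the LINC00996 group and 0 higher, where 12.1% of the 16095 genes tested were called lower and 9.38% higher, or 21.4% in all. Over all genes that is 1510 higher and 1942 lower, which changed to 2129 and 1667 with library size as the only scaling, 2101 and 1792 with a gene length offset and 3268 and 2612 with the GC offset. CD274 was 4.79-fold lower (log2 fold change -2.26 ± 0.15 SE, edgeR adjusted p = 2.5e-06) and ranked 49 by p among all genes. LGALS9 was 2.79-fold, NECTIN2 1.93-fold, CD47 1.71-fold and CD276 1.36-fold lower, and PDCD1LG2 5.46-fold on its few counts. For CD276 the call was lost without LINC00996 replicate 2 or AP001189.3 replicate 1 or 2 (adjusted p 0.0667 to 0.0741), and the GC offset moved its log2 fold change from -0.44 to -0.28. PVR had a log2 fold change of -0.14 (95% interval -0.33 to 0.05, adjusted p = 0.294), which became -0.20 (adjusted p = 0.00463) without LINC00996 replicate 1. VTCN1 had 0.22 (95% interval -0.09 to 0.53, adjusted p = 0.304), although its LINC00996 libraries all lay above the AP001189.3 libraries, as was so for 19.5% of all genes. No ligand was higher at an unadjusted p under 0.05 or by DESeq2 (0 of 8 for both). Non-overlap in the lower direction held for 6 ligands and for 19.7% of all genes.

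**Figure D2:**
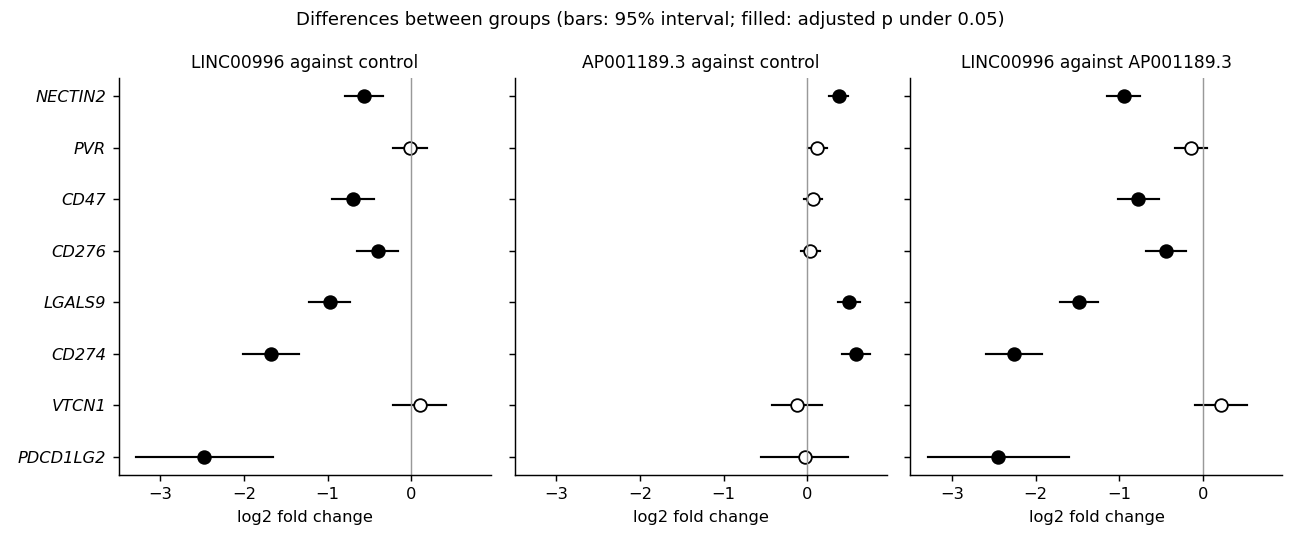
Log2 fold change of each ligand in the 3 comparisons, namely either lncRNA group against control and the LINC00996 group against the AP001189.3 group (edgeR, 6 libraries a comparison). Bars are 95% intervals and filled points have an adjusted p under 0.05. With LINC00996, 6 points are filled and lie left of 0, and with AP001189.3, the 3 filled points (CD274, LGALS9 and NECTIN2) lie right of it.

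Levels of different genes were set side by side in FPKM, which divides by gene length. In all 3 groups the order of the mean level was the same, namely NECTIN2, PVR, CD47, CD276, LGALS9, CD274, VTCN1 and PDCD1LG2. In control this ran from 98.5 ± 8.9 FPKM (SD, n = 3) for NECTIN2 through 34.1 ± 1.1 for PVR, 28.0 ± 1.3 for CD47 and 21.2 ± 0.54 for CD276 to 12.7 ± 0.92 for LGALS9. CD274 followed at 9.86 ± 0.97, VTCN1 at 2.59 ± 0.21 and PDCD1LG2 at 1.34 ± 0.36 FPKM. Neighbours in the order did not overlap in the control and AP001189.3 groups. In the LINC00996 group, CD47 (17.2 ± 2.8 FPKM) overlapped CD276 (16.0 ± 2.3), and CD274 (3.08 ± 0.66) overlapped VTCN1 (2.78 ± 0.16). Among 16567 protein-coding genes with FPKM above 0 in control, NECTIN2 was above 98.2%, CD274 above 75.7% and PDCD1LG2 above 36.9% of them. The summed FPKM of the 8 ligands was 204 to 216 in control, 141 to 155 in LINC00996 and 251 to 254 in AP001189.3 libraries, and NECTIN2 was the largest part of that sum.

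**Figure D3:**
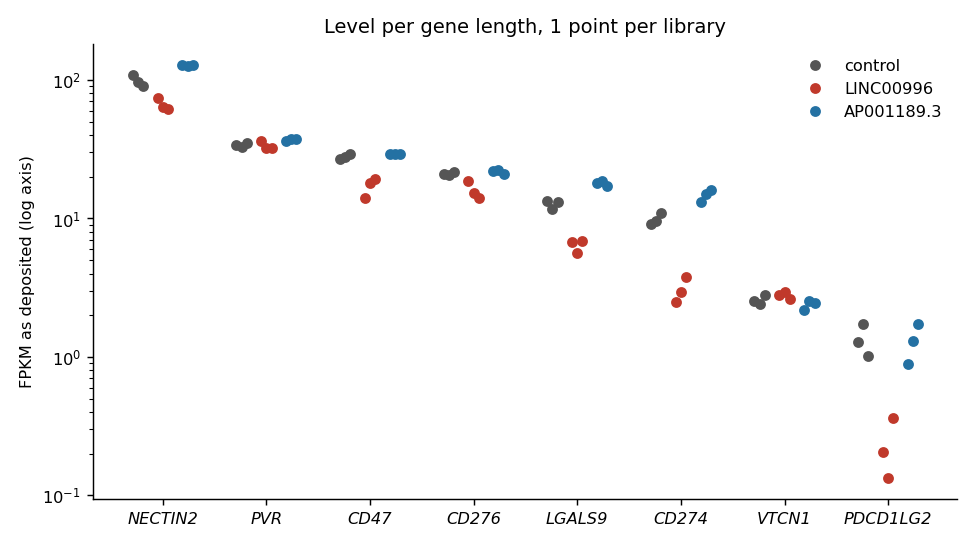
Deposited FPKM (log axis) of the 8 ligands, ordered by mean level, with 1 point per library and colors for the 3 groups. NECTIN2 is the highest and PDCD1LG2 the lowest in every group, and CD274 in the LINC00996 libraries comes down to the level of VTCN1.

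Among genes that act in PD-L1 transcription, IRF1, IFNGR2 and RELA fell with LINC00996. Of 22 such genes listed (interferon receptors, JAK kinases, STAT and IRF factors, the SOCS inhibitors, NF-kB subunits and other transcriptional regulators), 14 fell, 8 did not pass the test and 0 rose, where 11.6% of all genes fell, with a median log2 fold change of -0.45 against 0.01 over all genes. The count of 0 held at an unadjusted p under 0.05 and by DESeq2. IRF1, the factor through which interferon acts on the PD-L1 gene, went from 187 ± 9.6 CPM in control to 93.0 ± 5.8 with LINC00996 (SD, n = 3, log2 fold change -1.004 ± 0.09 SE, edgeR adjusted p = 2.07e-05). IFNGR2, a chain of the interferon-gamma receptor, went from 124 ± 7.2 to 63.5 ± 1.3 CPM (log2 fold change -0.96 ± 0.09, adjusted p = 2.9e-05). RELA, an NF-kB subunit, went from 198 ± 16 to 114 ± 8.7 CPM (log2 fold change -0.80 ± 0.10, adjusted p = 0.000195). Fewer of the 22 were called without control replicate 1 (9), control replicate 2 (8) or LINC00996 replicate 2 (9), settings under which 12.6%, 11.6% and 15% of all genes were called. Without LINC00996 replicate 1, 15 were called, and 33.2% of all genes.

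With AP001189.3, 8 of the same 22 genes rose and 3 fell, where 11.4% of all genes rose and 8.49% fell, with a median log2 fold change of 0.14 against -0.001 over all genes. IRF1 rose to 274 ± 9.2 CPM (SD, n = 3, log2 fold change 0.56 ± 0.05 SE, edgeR adjusted p = 2.54e-08). SOCS3, a feedback inhibitor of cytokine signaling, rose from 59.4 ± 3.1 to 93.2 ± 2.0 CPM (log2 fold change 0.65 ± 0.06, adjusted p = 2.76e-08), and with the GC offset its log2 fold change was 0.36. The 3 that fell, named after their values were seen, were the receptor chains IFNGR1 (-0.16), IFNGR2 (-0.17) and IFNAR1 (-0.31). IFNGR2 was not called by DESeq2 (adjusted p = 0.0561), IFNGR1 had -0.067 with the GC offset (adjusted p = 0.408), and both lost their calls without control replicate 2 or AP001189.3 replicate 2 or 3, and IFNGR2 without control replicate 1. SOCS1, an inhibitor like SOCS3, was among those that rose (0.89 on the log2 scale, also named after its value was seen). With all 9 libraries in 1 fit, 5 of the 22 were called, where 2.64% of all genes were, and without AP001189.3 replicate 3 it was 7, where 13.6% were.

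**Figure D4:**
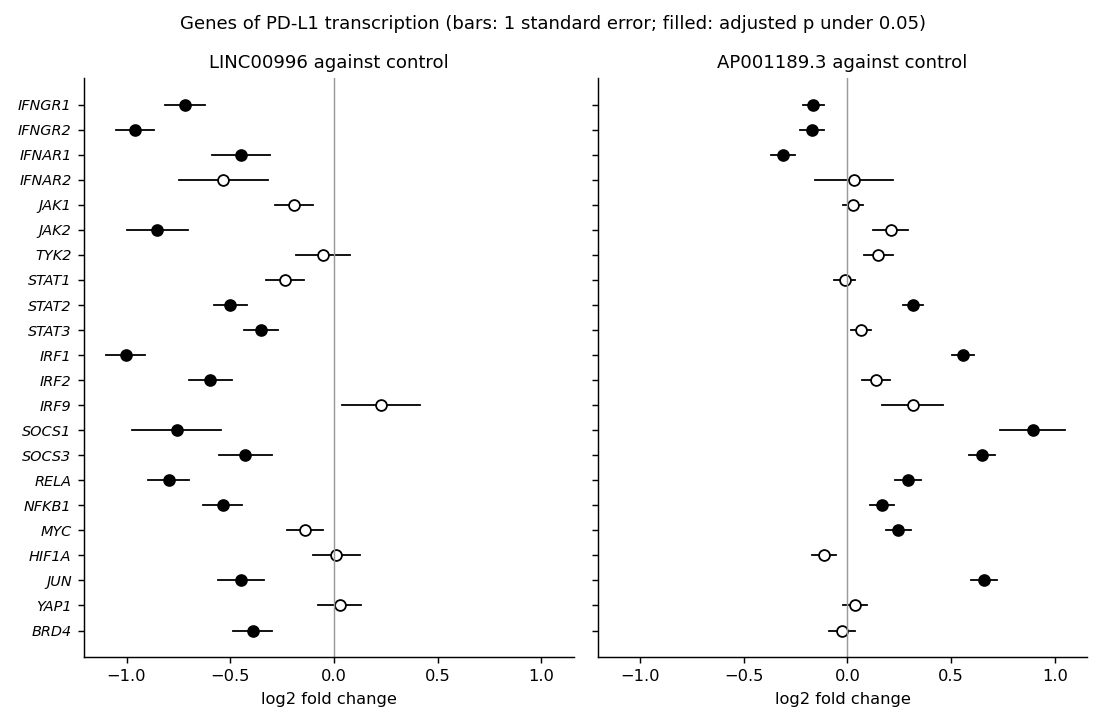
Log2 fold change of the 22 listed genes of PD-L1 transcription in each lncRNA group against control (edgeR). Bars are 1 standard error and filled points have an adjusted p under 0.05. With LINC00996 the 14 filled points lie left of 0, and with AP001189.3, 8 filled points lie right and 3 left of it.

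Of 17 listed genes that handle the PD-L1 protein after translation, 1 rose and 1 fell with LINC00996, where 22.3% of all genes were called. CMTM4, a membrane protein that protects PD-L1 from degradation, rose from 51.7 ± 0.66 to 82.8 ± 3.3 CPM (SD, n = 3, log2 fold change 0.68 ± 0.09 SE, edgeR adjusted p = 0.000361), and SYVN1, an endoplasmic reticulum ubiquitin ligase, fell from 94.1 ± 2.7 to 64.7 ± 3.0 CPM (log2 fold change -0.54 ± 0.09, adjusted p = 0.00151). The count depended on processing, with 11 of 17 called without LINC00996 replicate 1 and 13 with the GC offset, while the share of all genes called went to 33.2% and 36.7%. With a gene length offset it was 7 (22.6% of all genes), with all 9 libraries in 1 fit 6 (28.1%) and with library size alone 4 (22.8%). CMTM6, the main PD-L1 stabilizer of that family, had a log2 fold change of 0.20 ± 0.09 (adjusted p = 0.15, named after its value was seen). Its values under these other settings are not given here, so this result may also depend on processing. With AP001189.3, 6 of the 17 were called against 19.8% of all genes, and HIP1R (0.42), STUB1 (0.48) and TRIM21 (0.17) rose and CMTM4 (-0.25), GSK3B (-0.19) and SYVN1 (-0.24) fell on the log2 scale. With the GC offset HIP1R was at 0.23 (edgeR adjusted p = 0.0105) and SYVN1 at -0.36, while STUB1 (0.26, adjusted p = 0.0767) and GSK3B (-0.14, adjusted p = 0.0965) lost their calls. TRIM21 lost its call with library size alone, no filter, the gene length offset (0.081) or without control replicate 2 or any one AP001189.3 library, and GSK3B without control replicate 2. CMTM4, GSK3B and SYVN1 also lost their calls without AP001189.3 replicate 2 or replicate 3. Without AP001189.3 replicate 2 or replicate 3, 2 of the 17 were called, where 11.6% and 13.6% of all genes were, and with all 9 libraries in 1 fit 0 were, where 2.64% of all genes were. In LINC00996 against AP001189.3, 3 of the 17 were higher and 3 lower, where 21.4% of all genes were called, and the count of 6 became 11 without LINC00996 replicate 1 (41.6% of all genes). It became 2 without LINC00996 replicate 2 or any one AP001189.3 library (11.2% to 12.8% of all genes).

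Of 16 listed B7 and butyrophilin genes, relatives of PD-L1, 9 were tested, and with LINC00996 5 fell and 1 rose, where 11.6% of all genes fell and 10.7% rose. BTN3A3, of the butyrophilin group that takes part in sensing by gamma-delta T cells, fell from 30.8 ± 1.1 to 11.7 ± 1.2 CPM (SD, n = 3, log2 fold change -1.40 ± 0.12 SE, edgeR adjusted p = 1.65e-05). BTN3A1 fell by 0.59 ± 0.10 (adjusted p = 0.00185) and VSIR, the checkpoint protein VISTA, by 0.52 ± 0.13 (adjusted p = 0.0122), a call that was lost without control replicate 1 or 3 or LINC00996 replicate 2 (adjusted p 0.05 to 0.0564). The others were BTN3A2 (-0.36), NCR3LG1 (-0.47) and, rising, BTNL9 (0.88 on 20 to 52 counts). BTNL9 was not called by DESeq2 (adjusted p = 0.0625) or without any one library except LINC00996 replicate 3, and BTN3A2 and NCR3LG1 lost their calls without a filter, with the gene length offset and without any one control library or LINC00996 replicate 2, BTN3A2 also without LINC00996 replicate 3. The total of 6 calls became 2 without control replicate 1 or 3 or LINC00996 replicate 2, and 3 without control replicate 2. Under these settings 11.6% to 15% of all genes were called. With AP001189.3, BTN2A2 (0.51 ± 0.10, adjusted p = 0.000844), BTN2A1 (0.33 ± 0.07, adjusted p = 0.00196) and BTNL9 (0.91) rose, where 11.4% of all genes rose. The BTNL9 call was lost with the GC offset (0.76, adjusted p = 0.0809) and without control replicate 1 or 3 or AP001189.3 replicate 1 or 2, and 1 of the 9 genes was called with all 9 libraries in 1 fit, where 2.64% of all genes were. CD80 and CD86, the ligands of CD28 and CTLA4, had 0 to 3 counts a library.

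Among 7 nectins and nectin-like genes, 2 rose, 1 fell and 4 did not pass the test with LINC00996, where 10.7% of all genes rose and 11.6% fell. CADM1 (log2 fold change 0.43 ± 0.11 SE, edgeR adjusted p = 0.0124) and CADM4 (0.62 ± 0.16, adjusted p = 0.0174) rose and NECTIN4 (-1.27 ± 0.33, adjusted p = 0.0152, on 10 to 37 counts a library) fell with LINC00996. CADM1 and CADM4 lost their calls without control replicate 1, 2 or 3, CADM1 also without LINC00996 replicate 2, and NECTIN4 without control replicate 2 or 3 or LINC00996 replicate 3 (adjusted p 0.0525 to 0.0833). Without LINC00996 replicate 1 the log2 fold change of CADM4 was 0.40. CADM4 was the 1 of the 7 that rose with AP001189.3, where 11.4% of all genes rose (0.48 ± 0.10, adjusted p = 0.000773), while with all 9 libraries in 1 fit it did not pass (adjusted p = 0.0839).

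Of 15 galectin genes, 6 were tested, of which 2 rose, 1 fell and 3 did not pass with LINC00996, and 2 rose and 4 did not pass with AP001189.3. Over all genes, 10.7% rose and 11.6% fell with LINC00996 and 11.4% rose with AP001189.3. LGALS1 (0.85 ± 0.14 SE, edgeR adjusted p = 0.00135) and LGALS3 (0.62 ± 0.10, adjusted p = 0.0012), both abundant galectins, rose with LINC00996, opposite in sign to LGALS9, while LGALS8 fell by 0.58 ± 0.12 (adjusted p = 0.00545). With AP001189.3, LGALS1 (0.49 ± 0.08, adjusted p = 0.000776) and LGALS3 (0.30 ± 0.06, adjusted p = 0.00129) rose, as LGALS9 did, although in 1 fit of all 9 libraries neither passed (adjusted p = 0.0514 and 0.0889), and with the GC offset LGALS3 was at 0.19 (adjusted p = 0.0285).

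Among 8 costimulatory genes of the TNF family and related ligands, 5 were tested, of which 2 fell and 3 did not pass with LINC00996, where 11.6% of all genes fell, and 1 rose and 4 did not pass with AP001189.3, where 11.4% of all genes rose. CD40, the receptor through which T cell help reaches antigen-presenting cells, fell from 33.0 ± 3.7 to 11.8 ± 1.1 CPM with LINC00996 (SD, n = 3, log2 fold change -1.48 ± 0.13 SE, edgeR adjusted p = 1.68e-05), and TNFRSF14 (HVEM, a ligand of BTLA) fell by 2.49 ± 0.39 (adjusted p = 0.000925) from 2.05 ± 0.40 to 0.354 ± 0.15 CPM. Few reads stand behind the TNFRSF14 values, with 3 to 63 counts a library. TNFRSF14 rose by 0.75 ± 0.24 with AP001189.3 (adjusted p = 0.0267), a call that 7 of 14 alternatives kept. It was lost with the GC offset (0.52, adjusted p = 0.148), with all 9 libraries in 1 fit (0.75, adjusted p = 0.124) and without control replicate 1 (0.73) or 2 (0.63) or AP001189.3 replicate 1 (0.69), 2 (0.78) or 3 (0.77).

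Of 21 listed receptors that immune cells carry, 4 passed the filter on low counts, among them CD226 (16 to 30 counts a library) and PVRIG (15 to 28 counts), which were not called with either lncRNA, and PDCD1 (PD-1) and TIGIT had 0 to 2 counts and HAVCR2 (TIM-3) 1 to 10 counts a library. KLRC1, the 1 of the 4 called with LINC00996, where 22.3% of all genes were, had 3 to 16 counts and a log2 fold change of -1.42 ± 0.46 SE with LINC00996 (edgeR adjusted p = 0.0426), a call that 4 of 13 alternatives kept and that was lost when any one of the 6 libraries was left out (adjusted p 0.0589 to 0.159). With AP001189.3, edgeR called 0 of the 4, as did DESeq2, and 0 had an unadjusted p under 0.05, where 19.8% of all genes were called. In the CD47 axis, of which 7 genes were tested, THBS1, which encodes the CD47 ligand thrombospondin 1, rose by 0.67 ± 0.11 (adjusted p = 0.00102) and LRP1, the phagocytic receptor of calreticulin, fell by 0.51 ± 0.09 (adjusted p = 0.00213) with LINC00996, and the other 5 did not pass. Over all genes, 10.7% rose and 11.6% fell with LINC00996. SIRPA itself had 55.6 ± 1.9 CPM in control and 50.1 ± 3.8 with LINC00996 (SD, n = 3, adjusted p = 0.308, named after its value was seen). None of the 7 tested genes of this axis was called by edgeR or DESeq2 with AP001189.3, against 19.8% of all genes by edgeR, while 1 was higher and 1 lower at an unadjusted p under 0.05. Without AP001189.3 replicate 1, 3 of the 7 were called and 15.4% of all genes.

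Within 500 kb of CD274 or PDCD1LG2 on chromosome 9 the annotation places 33 other genes, of which 8 were tested. JAK2, which carries interferon receptor signals and is also on the list for PD-L1 transcription, fell from 29.1 ± 2.2 to 16.1 ± 3.1 CPM with LINC00996 (SD, n = 3, log2 fold change -0.85 ± 0.15 SE, edgeR adjusted p = 0.00172). ERMP1 rose by 0.31 ± 0.10 (adjusted p = 0.0381), and that call was lost without control replicate 1, 2 or 3 or LINC00996 replicate 2 or 3 (adjusted p 0.103 to 0.171). The other 6 did not pass, where 22.3% of all genes were called, and the median over the 8 was 0.05. Whether location on the chromosome has a part in the falls of CD274 and PDCD1LG2 was not tested. Without LINC00996 replicate 1 or with the GC offset, 5 of the 8 were called, where 33.2% and 36.7% of all genes were. With AP001189.3, KIAA2026 (-0.40 ± 0.10, adjusted p = 0.00444), INSL4 (-0.44 ± 0.11, adjusted p = 0.005) and ERMP1 (-0.16 ± 0.06, adjusted p = 0.0474) fell, opposite in sign to CD274, where 8.49% of all genes fell. ERMP1 was not called by DESeq2 (adjusted p = 0.0555) or with the GC offset (-0.12, adjusted p = 0.118), and 4 of 14 alternatives kept its call. Without control replicate 2, 1 of the 8 was called (12% of all genes) and KIAA2026 had -0.28 (adjusted p = 0.0674), and with all 9 libraries in 1 fit 0 were called (2.64% of all genes).

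The genes whose levels followed each ligand most closely were sought among 9859 genes with a mean of at least 10 CPM, by Pearson's r of log2 CPM over the 9 libraries. The libraries fall into 3 groups, and r mostly follows the group means, so it is a description and not a test. For CD274 the closest were RASGRP3 (r = 0.998), RSAD2 (r = 0.998), GBP1 (r = 0.995), ZCCHC2 (r = 0.995) and IFIT2 (r = 0.995). IFIT2 had 1078 ± 39 CPM in control, 340 ± 60 with LINC00996 and 1911 ± 201 with AP001189.3 (SD, n = 3). RSAD2 had 89.8 ± 5.9, 25.3 ± 5.5 and 135 ± 21 CPM. ZCCHC2 had the same order of groups with a narrower spread, at 52.0 ± 1.7, 40.9 ± 2.1 and 57.9 ± 0.17 CPM.

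**Figure D5:**
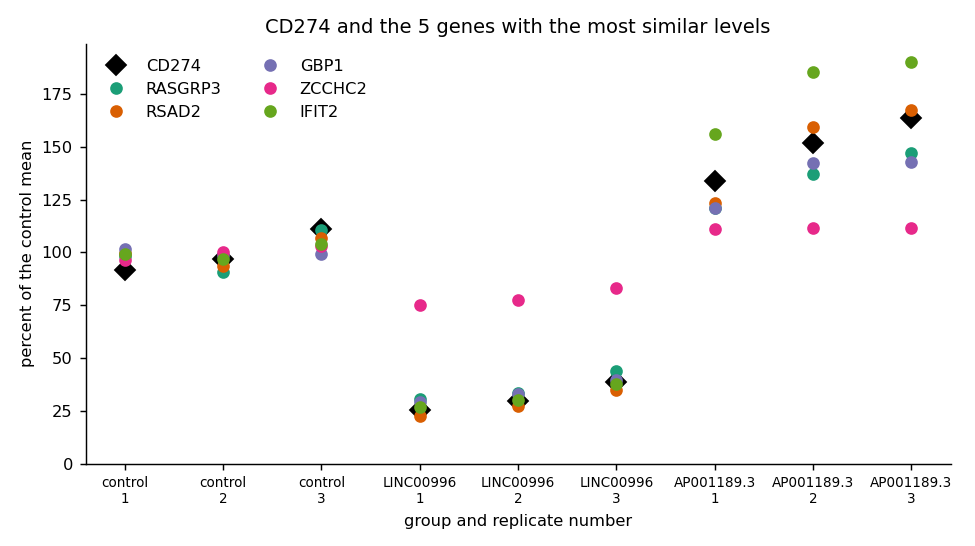
Level of CD274 (black diamonds) and of the 5 genes with the highest r to it, as a percent of each gene's control mean, in each of the 9 libraries. CD274 lies at 25.6% to 38.5% in the LINC00996 and 134% to 163% in the AP001189.3 libraries. IFIT2 lies above it in the AP001189.3 libraries (156% to 190%), and ZCCHC2 has the narrowest range (75.05% to 112%).

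Other ligands had other nearest genes. LGALS9 was closest to OAS1, TGM2 and BATF2 (each r = 0.995), CD47 to CXCL8, SAMD9 and TTC39A (0.995, 0.995 and 0.994), NECTIN2 to B3GNT7 and GRIN2D (0.996 and 0.995) and CD276 to VSIR, POR and RUNX3 (0.991, 0.991 and 0.981). PDCD1LG2 was closest to NID1 (0.991), PAXIP1-AS2 (0.981) and ALPK2 (0.977). Between ligands, r over the 9 libraries was 0.97 for CD274 with LGALS9 and with CD47, 0.97 for NECTIN2 with LGALS9, 0.51 for CD274 with PVR and -0.68 for CD274 with VTCN1.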

How the data were processed

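RNA of transfected A549 cells was sequenced by the authors as 150-base paired reads. According to the submitters' processing notes, reads were aligned with HISAT2 2.0.5 to GRCh38 (hg38) and counted with featureCounts 1.5.0-p3. The authors deposited the raw counts per gene of all 9 libraries, without normalization, and FPKM values per library. The FPKM values were not exactly counts divided by gene length and library total. They were that quantity times a constant per library, from 0.961 in LINC00996 replicate 2 to 1.016 in AP001189.3 replicate 1. The notes also name DESeq2 1.20.0 and edgeR 3.22.5. Gene coordinates equal GENCODE 29 for all 58735 genes.

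Groups were taken from the sample titles. Each comparison was fitted on its 6 libraries with edgeR 4.0.16 in R 4.3.3 (filterByExpr, TMM, robust quasi-likelihood test), with Benjamini-Hochberg adjustment over all genes tested and calls at an adjusted p under 0.05. Standard errors and 95% intervals come from that fit. CPM uses TMM factors of all 9 libraries, and log2 CPM, used for correlations, a prior count of 2. FPKM was used to set genes side by side. The depth of 15272450 to 18125447 counts limits the precision mainly for PDCD1LG2.

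The 8 ligands and the 9 lists of other genes were chosen with earlier results of these data known. Of each list the text names up to 3 genes with the smallest adjusted p in LINC00996 against control and up to 2 in AP001189.3 against control, where called, and for each ligand called at least once the 3 genes (5 for CD274) with the highest r, of which 1 is not reported here. Other genes of a list were named after their values were seen. Lists were described by counts and medians. The fits were also run on counts simulated from edgeR's own model, with no GC trend and no library that stood apart. That run cannot show how the fits behave where such departures are present, as they are here. Alternatives were DESeq2 1.42.0, library size alone, no filter, at least 10 counts in every library, 1 fit of all 9 libraries, a replicate term, a gene length offset, leaving out each library, RPKM from the counts and, chosen after seeing the data, a GC offset (loess span 0.75).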

Additional observations from a re-analysis of the deposited data

How the results depend on the processing

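CD274 kept its direction and its call under all 14 alternatives in each comparison, with log2 fold changes of -1.85 to -1.54 for LINC00996 against control, 0.51 to 0.66 for AP001189.3 against control and -2.44 to -2.12 for LINC00996 against AP001189.3. The number of ligands called was 5 to 6, 3 to 5 and 5 to 7 in these comparisons, with main values of 6, 3 and 6. The value of 5 in AP001189.3 against control came with the GC offset, under which CD276 reversed to -0.17, PDCD1LG2 reversed to 0.055 and CD47 was called. PVR in LINC00996 against control reversed to 0.021 with library size alone and ranged from -0.077 to 0.024 with a library left out, being above 0 without control replicate 3, LINC00996 replicate 2 or LINC00996 replicate 3, and PDCD1LG2 in AP001189.3 against control ranged from -0.29 to 0.19 with a library left out. None of these values of PVR and PDCD1LG2 passed the test, and the cause was not tested. PDCD1LG2 could not be fitted with at least 10 counts in every library where the LINC00996 group took part.

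The background of calls over all genes moved more. In LINC00996 against control, 3588 calls became 5906 with the GC offset and 1925 to 5481 with a library left out. In AP001189.3 against control, 3180 became 437 with all 9 libraries in 1 fit and 1914 to 3598 with a library left out. In LINC00996 against AP001189.3, 3452 became 5880 with the GC offset and 1840 to 6828 with a library left out. Of 378 recomputed counts of called list genes, 81 moved by over 1.5 times. The order of levels by FPKM was the same for all 8 ligands with RPKM from TMM-scaled counts. Both measures divide the same counts by the same gene lengths and differ only by a constant per library. The order within a library could therefore not change, and the sameness says nothing about how stable the order is.

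The replicate numbers do not show that libraries are paired. In LINC00996 against control, the deviations of same-numbered libraries correlated by 0.149, 0.0212 and 0.0858, and not every library correlated best with its own number. With the replicate block, CD274 had log2 fold changes of -1.69, 0.58 and -2.27 in the 3 comparisons, the ligand counts stayed at 6, 3 and 6, and calls over all genes went to 4500, 3466 and 3772. Depth limits PDCD1LG2, TNFRSF14, NECTIN4 and the receptors on immune cells, where few counts stand behind each value.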
